A study of Xenopus laevis with 6 samples.

Results

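The members of the proximal leptin signalling chain were measured in *Xenopus laevis* juveniles, in blocks of tissue that joined the preoptic area with the hypothalamus and the pituitary, to ask whether the genes that receive and relay the leptin signal are themselves altered at the mRNA level by the hormone. The 10 genes, chosen by name, were the leptin receptor *lepr*, the Janus kinases *jak1*, *jak2*, *jak3* and *tyk2*, the transcription factors *stat3.2* and *stat5b*, and the phosphatases *ptpn1*, *ptpn2* and *ptpn11*. All 10 of 10 genes had at least 1 probe set annotated with that symbol alone after the suffix for the gene copy was removed, out of 9273 such genes on the array. Together they had 20 of the 32539 probe sets tested, and no filter on low signal was applied, so every member entered the tests. Another 2 probe sets carried a member's symbol beside a different one and were left out.

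The leptin group was 3 frogs (frogs 4 to 6) given recombinant frog (*X. laevis*) leptin into the brain ventricles, 20 ng for each g of body weight. The saline group was 3 frogs (frogs 1 to 3) injected in the same way with 0.6% saline. All 6 were juveniles with an average body weight of 0.8 g, killed 2 h after the injection, with 1 Affymetrix array per frog. The labels number the frogs separately and give no sex, clutch or batch.

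Leptin binds a receptor of the class I cytokine family that has no kinase of its own. JAK2, held on the receptor's intracellular part, phosphorylates the receptor and the STAT proteins docked on it, and phosphorylated STATs move to the nucleus and switch on target genes such as *socs3*, whose product blocks the receptor. In mammals the tyrosine phosphatases PTP1B (*ptpn1*) and TCPTP (*ptpn2*) remove phosphate from JAK2, STAT3 and other members of the chain, while SHP2 (*ptpn11*) links the receptor to the ERK pathway. These steps act on proteins, and the arrays measured only transcripts. The genome of *X. laevis* is allotetraploid, and many genes have a copy on the long (.L) and another on the short (.S) chromosome of a pair, called homeologs.

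The arrays had median log2 signals of 7.36 to 7.46 in leptin frogs and 7.42 to 7.45 in saline frogs, and no pair of arrays shared a single identical value (0%). The array of leptin frog 6 stood apart. At the dim end, the 3253 probe sets in the lowest 10% of mean signal averaged 4.06 there, against 3.86 in both other leptin frogs and 3.87 to 3.90 in saline frogs. Its median was the lowest (7.36), as was its standard deviation over probe sets (2.33, against 2.39 to 2.41). Its highest correlation with another array was 0.988, against 0.991 to 0.995 for the others. Of the 20 member probe sets it was highest in 6 and lowest in 6 (saline frog 3 in 4 and 6, saline frog 1 in 8 and 1). Of 9 neuronal markers measured, 8 stood at percentile 85.4 or above of all probe sets in saline frogs (*snap25.L* at 99.5) and *syt1.L* at 32.2. Of 13 listed genes of the hypothalamus and preoptic area 4 were measured: *nkx2-1.L* stood at percentile 83.9, *trh.S* at 84.8 and *pmch.L* at 91.3, but the hypothalamic identity gene *rax.S* at 21.5. The blocks were not alike within either group. The mean log2 signal of 4 choroid plexus and ependyma markers was 7.90 in leptin frog 4 and 7.66 in saline frog 1, against 8.89 to 9.27 in the other frogs. *ptgds.S* and *otx2.L* were lowest in those frogs, whereas *ttr.L* and *foxj1.S* did not share that pattern. The mean log2 signal of 6 pituitary markers was 11.2 to 11.5 in leptin frogs, against 5.22 in saline frog 1, 10.7 in saline frog 2 and 11.8 in saline frog 3. The mean of 9 skeletal muscle markers was 6.54 to 6.66 in leptin frogs, against 8.81 in saline frog 3 and 6.57 to 7.04 in the other saline frogs. The muscle markers were divided. *atp2a1.S* was lowest in saline frog 3, at 10.2 against 10.3 to 10.4 in the other frogs. *myh4.L* was not raised there, at 4.28 against 5.33 in leptin frog 6. The other listed muscle markers were highest in saline frog 3. The covariates used below were means of fewer markers. For pituitary signal they were *gh1*, *prl.1*, *pomc* and *cga* (5.29 in saline frog 1, 12.4 to 13.2 in the others). For muscle signal they were *acta1*, *tnnt3*, *mylpf* and *ckm* (9.90 in saline frog 3, 6.31 to 7.25 in the others), all of them among the markers highest in that frog. Each covariate was thus set mainly by 1 frog, so a fit with it is not separate from leaving that frog out. In a tissue block, fewer cells of a type and less RNA per cell cannot be told apart.

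No difference between leptin and saline frogs passed the test for any of the 20 member probe sets. With limma, 0 of 20 had an adjusted p under 0.05, where 0% of all probe sets did, and 0 of 20 had an unadjusted p under 0.05, where 2.68% of all probe sets were lower and 2.03% higher at that level. Of the 20 differences, 8 were above 0 and 12 below, with a median of -0.02 on the log2 scale (leptin minus saline), against a median of 0.01 over all probe sets. The adjusted p-values of the members, over all probe sets, ran from 0.906 to 0.999. Each 95% interval was taken for its probe set alone. Signal above background was not tested for any probe set, so each interval describes the signal. Those of the 3 *jak3.L* probe sets, at the floor of the array, and the 2 dim *lepr.S* probe sets do not bound a change in transcript. The dimmest *jak1.S* probe set (percentile 18.7 in saline frogs) was about as dim as the brighter *lepr.S* probe set (18.0), and its interval is limited in the same way. Of the 15 probe sets other than those of *jak3.L* and *lepr.S*, all 15 intervals lay between -1 and 1 on the log2 scale. That is a difference in signal of less than 2 times in either direction, and 10 of the 15 lay between -0.5 and 0.5. The widest bounds were -0.91 for a *jak1.S* probe set and 0.96 for *stat5b.L*. For comparison, the interval of the feedback gene *socs3.L* began at 0.98, above the upper bound of these 15. That of *socs3.S* began at 0.79, above the upper bound of 13 of 15. The *socs3* probe sets ranked 1 and 2 by p among all probe sets, so the comparison is with the most extreme results. Neither passed over all probe sets (limma adjusted p = 0.291 and 0.306). *socs3.L* was itself dim, at percentile 18.9 in saline frogs (*socs3.S* at 33.8), and its interval is limited in the same way as those of *lepr.S*.

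**Figure D1:**
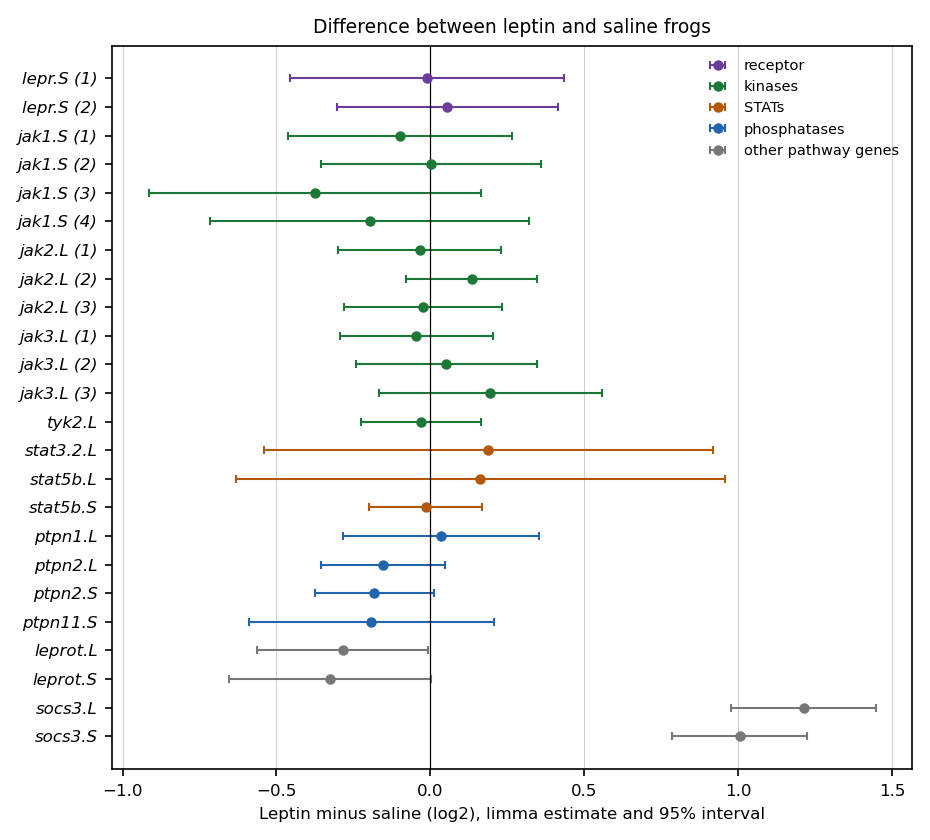
Leptin minus saline difference on the log2 scale for the 20 member probe sets and for both copies of *leprot* and *socs3* (points, limma estimate; bars, 95% interval; 3 frogs per group). Numbers in brackets order the probe sets of a gene copy from the highest to the lowest mean signal. The 15 member intervals other than those of *lepr.S* and *jak3.L* lie between -1 and 1, and the *socs3.L* interval begins at 0.98.

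The groups of 3 frogs did not overlap in 2 of the 20 probe sets, both lower in leptin frogs, where 6.78% of all probe sets were apart in that direction, and in 0 of 20 higher, where 5.15% of all were. The 2 probe sets were those of the phosphatase gene *ptpn2*, and they are described with the other phosphatases. The spread between frogs of a group differed widely among the members. The residual standard deviation (SD) ran from 0.05 for *stat5b.S* to 0.51 for *stat5b.L*, with a median of 0.19, against a median of 0.15 over all probe sets.

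**Figure D2:**
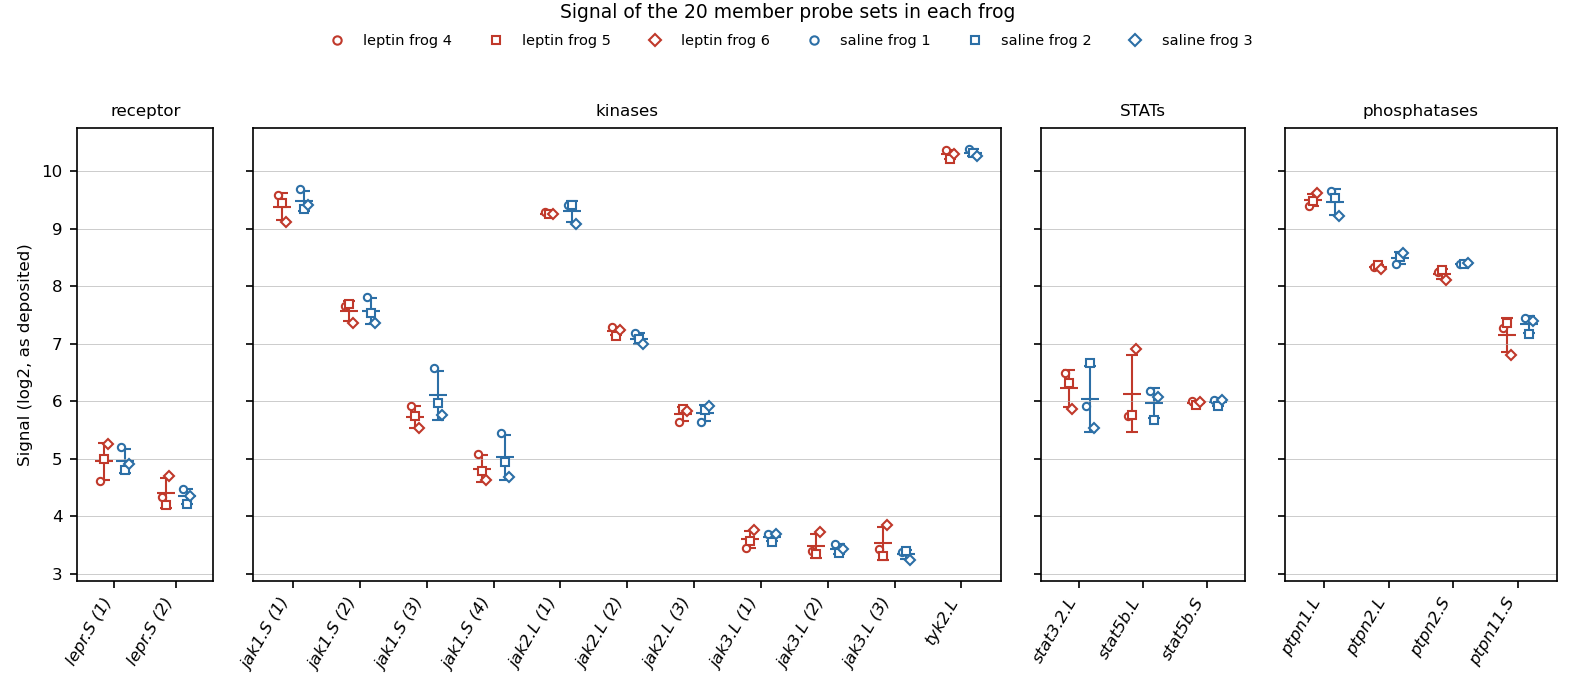
Deposited log2 signal of each member probe set in each frog (symbols), with group mean and SD (bars, n = 3), leptin frogs left and saline frogs right of each pair. The *jak3.L* probe sets lie lowest, between 3.23 and 3.84, and the *tyk2.L* probe set highest, between 10.2 and 10.4.

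The receptor gene was represented by the copy *lepr.S* alone, with 2 probe sets of low signal. Their names share a stem. Whether both read the *lepr* transcript, or give separate readings of it, was not tested. The first (Xl2.55488.1.A1_at) read 4.61, 5.00 and 5.25 in leptin frogs 4, 5 and 6, against 5.20, 4.80 and 4.90 in saline frogs 1, 2 and 3. The second (Xl2.55488.1.S1_at) read 4.33, 4.18 and 4.69 in leptin frogs, against 4.48, 4.21 and 4.35 in saline frogs. On both, leptin frog 6 was the highest of all 6 frogs and saline frog 1 the second highest, and the groups overlapped. The differences were -0.01 (SE 0.19, 95% interval -0.46 to 0.43) and 0.06 (SE 0.15, interval -0.30 to 0.41), with limma adjusted p-values of 0.994 and 0.953. As folds, leptin over saline, the intervals ran from 0.728 to 1.35 and from 0.810 to 1.33. In saline frogs the first stood at percentile 18.0 of all probe sets by mean signal, and the second lower. The deposited values carry no detection call, so whether these signals stood above background was not tested. Leptin frog 6 was also the array on which the dimmest 10% of probe sets read highest on average. The first *lepr.S* probe set, at percentile 18.0, lay above that band. Without leptin frog 6 the differences were -0.16 and -0.09, and without leptin frog 4 they were 0.16 and 0.09.

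**Figure D3:**
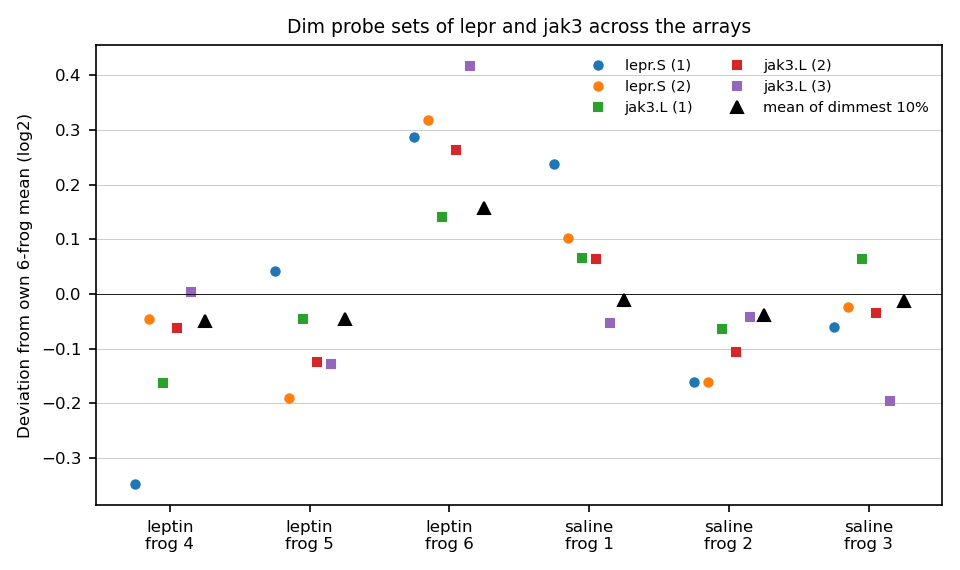
Deviation of each *lepr.S* and *jak3.L* probe set from its own mean over the 6 frogs (log2), leptin frogs left and saline frogs right, with the same deviation for the mean of the dimmest 10% of all probe sets (black triangles, 3253 probe sets). All 5 probe sets and the dimmest 10% are highest in leptin frog 6.

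The kinase genes spanned the signal range of the arrays. Levels of different probe sets depend on their probes as well as on the transcript, so each is placed only against all probe sets. *tyk2.L*, a kinase of the interferon and interleukin receptors in mammals, stood at percentile 87.2 in saline frogs. It read 10.37, 10.22 and 10.30 in leptin frogs, against 10.39, 10.32 and 10.27 in saline frogs, a narrow range in which the groups overlapped. Its difference was -0.03 (SE 0.08, interval -0.22 to 0.17, limma adjusted p = 0.954).

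*jak2*, the kinase that leptin receptors use in mammals, was represented by 3 probe sets of *jak2.L*, at percentiles 75.1, 45.5 and 29.0. The brightest read 9.29, 9.26 and 9.25 in leptin frogs, against 9.41, 9.41 and 9.08 in saline frogs, so that the 3 leptin values lay inside the saline range. The difference was -0.04 (SE 0.11, interval -0.30 to 0.23). The second read 7.29, 7.14 and 7.24 in leptin frogs, against 7.18, 7.09 and 6.99 in saline frogs, and overlapped through leptin frog 5 and saline frog 1. Its difference of 0.13 (SE 0.09, interval -0.08 to 0.35) and the -0.02 (SE 0.11) of the third lay on either side of 0. The second was 0.085 without saline frog 3 and 0.078 with the muscle signal as a covariate. The limma adjusted p-values of the 3 were 0.960, 0.906 and 0.976. The mean of the 3 probe sets differed by 0.03 (SE 0.07, interval -0.13 to 0.19).

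*jak1*, the kinase shared by most class I and II cytokine receptors in mammals, had 4 probe sets of *jak1.S*, and all 4 were highest in saline frog 1. The brightest, at percentile 77.6, read 9.59, 9.44 and 9.13 in leptin frogs, against 9.69, 9.35 and 9.42 in saline frogs. The second, at percentile 51.9, read 7.65, 7.70 and 7.37 in leptin frogs, against 7.81, 7.54 and 7.36 in saline frogs. The dimmer pair (Xl2.3952.2.S1_at and Xl2.3952.2.S1_s_at) showed the excess of saline frog 1 more plainly. Their names share a stem, and _s_at is Affymetrix's mark for probes shared by several transcripts. Whether the pair gives separate readings was not tested. The third probe set read 5.92, 5.73 and 5.53 in leptin frogs, against 6.59, 5.96 and 5.76 in saline frogs, and the fourth read 5.07, 4.79 and 4.62 in leptin frogs, against 5.45, 4.95 and 4.68 in saline frogs. The 4 differences were -0.10 (SE 0.15), 0.00 (SE 0.15), -0.38 (SE 0.22) and -0.20 (SE 0.22), with limma adjusted p-values from 0.906 to 0.999. Without saline frog 1 they were 0.003, 0.12, -0.13 and 0.01, so the member difference farthest from 0, -0.38, was -0.13 without that frog. Saline frog 1 was also the frog with low pituitary signal. It had the highest mean for leukocyte and microglia markers, 7.74 against 7.21 to 7.33 in leptin frogs and 7.12 to 7.33 in the other saline frogs (10 of 16 listed markers measured). Its mean for erythrocyte markers was the highest as well, 12.3 against 11.7 to 11.8 in leptin frogs and 11.5 to 11.8 in the other saline frogs (6 of 9 listed markers measured). Among single markers, *ptprc.L*, *coro1a.S*, *tyrobp.S* and *hbg1.L* were not highest in saline frog 1, and the other measured markers of both lists were. Fitted with the pituitary signal of each frog as a covariate, the 4 differences were -0.01, 0.12, -0.15 and 0.01, whereas with the muscle signal as a covariate they were -0.10, -0.12, -0.54 and -0.38. Without saline frog 3, the frog with muscle transcripts, the third and the last of the 4 differed by -0.55 and -0.37 (limma unadjusted p = 0.0535 for the third). The part of the leukocyte or erythrocyte signal in the *jak1.S* values was not tested. In RefSeq's gene order, *jak1.S* lies close to *lepr.S*, with 3 protein-coding genes between them.

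*jak3*, which in mammals serves the common gamma chain of interleukin receptors on lymphocytes, read at the floor of the array. Its 3 *jak3.L* probe sets stood at percentiles 2.35, 0.839 and 0.378 in saline frogs. They read 3.30 to 3.84 in leptin frogs and 3.23 to 3.68 in saline frogs, and on all 3 the highest value was that of leptin frog 6. Their differences were -0.05 (SE 0.10), 0.05 (SE 0.12) and 0.19 (SE 0.15), with limma adjusted p-values of 0.944, 0.947 and 0.906. Without leptin frog 6 the differences were -0.13, -0.07 and 0.03. The leukocyte marker *ptprc.L*, at percentile 14.8, was also highest in leptin frog 6, at 6.02 against 4.63 and 4.77 in the other leptin frogs and 4.62 to 4.79 in saline frogs. The list of leukocyte and microglia markers as a whole read 7.33 in leptin frog 6, within the range of the saline frogs. Its members were divided: *coro1a.S* and *tyrobp.S* were also highest in leptin frog 6, whereas *itgb2.L*, *c1qb.L* and *c1qc.L* were lowest there. The name of the third probe set ends in _x_at, Affymetrix's mark for probes that can bind other transcripts as well. The names of the 3 *jak3.L* probe sets share a stem, and whether they give separate readings of the transcript was not tested.

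**Figure D4:**
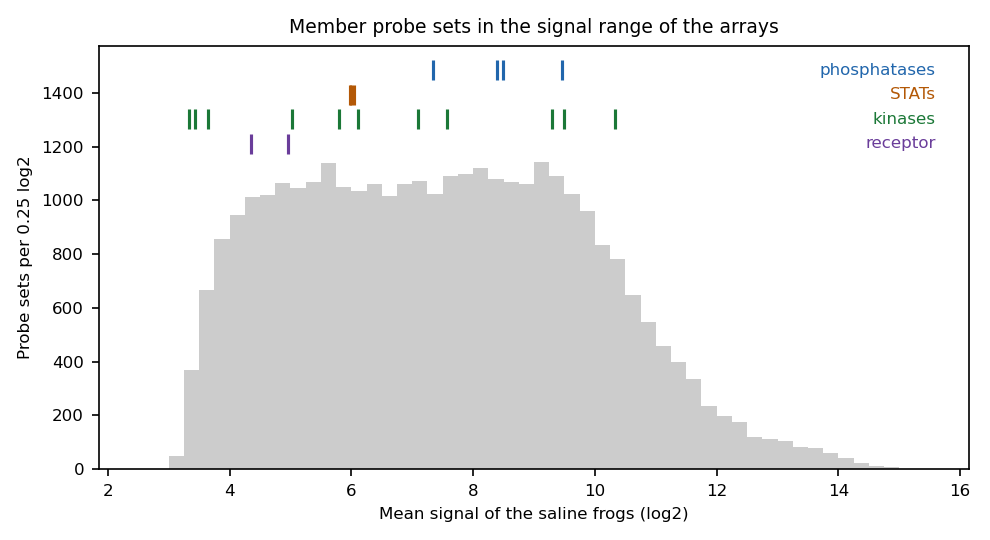
Distribution of the mean saline signal over all 32539 tested probe sets (grey, probe sets per 0.25 on the log2 axis), with the member probe sets marked by role (ticks). The receptor ticks lie at 4.35 and 4.96, the 3 STAT ticks together near 6, and the phosphatase ticks between 7.34 and 9.47.

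The STAT genes read in the lower middle of the range, at percentiles 31.2 to 32.1, and held the 2 most variable probe sets among the members. *stat3.2.L*, 1 of a pair of neighbouring *stat3* genes on the long chromosome, encodes the factor through which leptin acts on transcription in mammals. The other gene of the pair, *stat3.1.L*, had no probe set annotated with its symbol alone, so it was not measured. *stat3.2.L* read 6.49, 6.31 and 5.87 in leptin frogs, against 5.92, 6.66 and 5.53 in saline frogs. The saline values spanned the leptin values, with the highest and the lowest of the 6 both in saline frogs. The difference was 0.19 (SE 0.30, interval -0.54 to 0.92, limma adjusted p = 0.926), or 0.687 to 1.89 times the saline level as a fold. Leaving out saline frog 2 gave 0.50, and leaving out saline frog 3, the frog with muscle transcripts, gave -0.06.

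*stat5b*, a mediator of growth hormone and prolactin signalling in mammals, was measured in both copies. *stat5b.L* read 5.73, 5.76 and 6.90 in leptin frogs, against 6.17, 5.67 and 6.07 in saline frogs, with leptin frog 6 alone above the other 5. *stat5b.S* read 6.01, 5.93 and 5.98 in leptin frogs, against 6.02, 5.91 and 6.03 in saline frogs, and did not share that high value. The differences were 0.16 (SE 0.33, interval -0.63 to 0.96) for the .L copy and -0.01 (SE 0.08, interval -0.20 to 0.17) for the .S copy, with limma adjusted p-values of 0.938 and 0.978. Without leptin frog 6 the difference of *stat5b.L* was -0.22. In RefSeq's gene order, *stat5b.L* is the next protein-coding gene after *stat3.2.L*, with 0 genes between them, yet leptin frog 6 was the second lowest of the 6 frogs for *stat3.2.L*.

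The phosphatase genes read in the middle and upper range, at percentiles 48.9 to 77.4, and included the only members whose groups were apart. *ptpn2.L* read 8.33, 8.37 and 8.31 in leptin frogs, against 8.38, 8.51 and 8.58 in saline frogs. *ptpn2.S* read 8.25, 8.28 and 8.11 in leptin frogs, against 8.38, 8.39 and 8.41 in saline frogs. Every leptin frog thus lay below every saline frog on both probe sets, by a margin of 0.01 between the nearest frogs of the 2 groups for the .L copy and 0.11 for the .S copy. The differences were small, -0.15 (SE 0.08, interval -0.36 to 0.05) and -0.18 (SE 0.08, interval -0.37 to 0.01), which is 0.898 and 0.882 times the saline level, and neither passed (limma unadjusted p = 0.110 and 0.060, adjusted p = 0.906 for both). Among the 2009 genes with both copies measured, 67, or 3.33%, had both copies apart and lower in leptin frogs. Taken as the mean of its 2 probe sets, *ptpn2* differed by -0.17 (SE 0.07, limma unadjusted p = 0.0501, adjusted p = 0.819 over 9273 genes) and ranked 526 by p. The name of the *ptpn2.S* probe set ends in _s_at, Affymetrix's mark for probes shared by several transcripts, and whether it also reads the .L copy was not tested. With the muscle signal of each frog as a covariate the *ptpn2.L* difference was -0.10 and that of *ptpn2.S* -0.17. With the pituitary signal as a covariate they were -0.21 and -0.19. On both probe sets leptin frog 6 was the lowest frog and saline frog 3 the highest. Without leptin frog 6 the differences were -0.14 and -0.13, and without saline frog 3 they were -0.11 and -0.18.

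The other phosphatases overlapped between the groups. *ptpn1.L*, encoding PTP1B, which limits leptin action in the mammalian hypothalamus, read 9.40, 9.48 and 9.62 in leptin frogs, against 9.65, 9.53 and 9.22 in saline frogs. Its difference was 0.04 (SE 0.13, interval -0.28 to 0.35, limma adjusted p = 0.968). *ptpn11.S*, encoding SHP2, read 7.27, 7.36 and 6.81 in leptin frogs, against 7.46, 7.18 and 7.39 in saline frogs, with leptin frog 6 alone below the rest. Its difference of -0.19 (SE 0.17, interval -0.59 to 0.21, limma adjusted p = 0.906) was -0.02 without that frog.

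Both copies of a gene were measured for 2 members, and the response of the .L copy was tested against that of the .S copy in the same frogs. The .L minus .S value of *ptpn2* was 0.12 ± 0.07 (SD, n = 3) in leptin frogs and 0.10 ± 0.09 (SD, n = 3) in saline frogs, so the copies differed in response by 0.03 (SE 0.09, interval -0.18 to 0.23). For *stat5b* it was 0.16 ± 0.66 (SD, n = 3) in leptin frogs and -0.02 ± 0.20 (SD, n = 3) in saline frogs, a difference in response of 0.18 (SE 0.33, interval -0.61 to 0.97). Neither passed with limma (adjusted p = 0.972 and 0.948 over 2009 gene pairs). Of all pairs 0% passed and 103 had an unadjusted p under 0.05. The .L minus .S value of *stat5b* had the larger SD in both groups, and without leptin frog 6 the difference in response of *stat5b* was -0.20. Whether the *ptpn2.S* probe set also reads the .L copy was not tested. The 0.03 of *ptpn2* therefore does not show that its copies responded alike.

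Of 63 other genes listed for the pathway (receptors and their chaperones, other STATs, adaptors and inhibitors), 31 were measured, by 56 probe sets. Of these probe sets 34 were higher and 22 lower in leptin frogs, with a median difference of 0.03, and 0 of 56 passed over all probe sets with limma. The adaptors (7 genes) had 12 of 15 probe sets higher, the inhibitors (13 genes) 15 of 22, and the ligand and receptor genes (10 genes) 7 of 18. Of all 32539 probe sets, 17042 were higher. Several of these probe sets belong to the same gene, so the counts are not of separate genes. The median differences of the 3 lists were 0.05, 0.05 and -0.05. At an unadjusted p under 0.05, 2 of 56 were higher (both copies of *socs3*), where 2.03% of all probe sets were, and 2 of 56 lower, where 2.68% of all were. The lower ones were the feedback gene *socs2.S* (-0.33, SE 0.11) and *leprot.L* (-0.29, SE 0.12, unadjusted p = 0.0445). *leprot* encodes a small membrane protein, endospanin-1, that in mammals lowers the number of leptin receptors at the cell surface. *leprot.L* read 8.99, 9.22 and 9.01 in leptin frogs, against 9.27, 9.27 and 9.55 in saline frogs. *leprot.S* read 10.10, 10.17 and 10.07 in leptin frogs, against 10.30, 10.29 and 10.73 in saline frogs, a difference of -0.33 (SE 0.14, unadjusted p = 0.0514). All leptin frogs lay below all saline frogs for both copies, as in 3.33% of genes with both copies measured, and neither copy passed (limma adjusted p = 0.906 for both). Of the 56 probe sets, the groups were apart in 4 that were lower, where 6.78% of all probe sets were. They were apart in 6 that were higher (*lep.S* and both copies of *socs3* among them), where 5.15% of all were. *leprot* is named here for its small p among the 56 probe sets. Saline frog 3, the frog with muscle transcripts, was the highest on both, and without it the differences were -0.19 and -0.18. With the muscle signal as a covariate they were -0.16 and -0.12. They were farther from 0 without saline frog 1, -0.33 and -0.40. With the pituitary signal as a covariate, which that frog mainly sets, they were -0.34 and -0.41. The leptin gene itself, *lep.S*, read at percentile 4.83, with a difference of 0.22 (SE 0.10, limma adjusted p = 0.906).

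**Figure D5:**
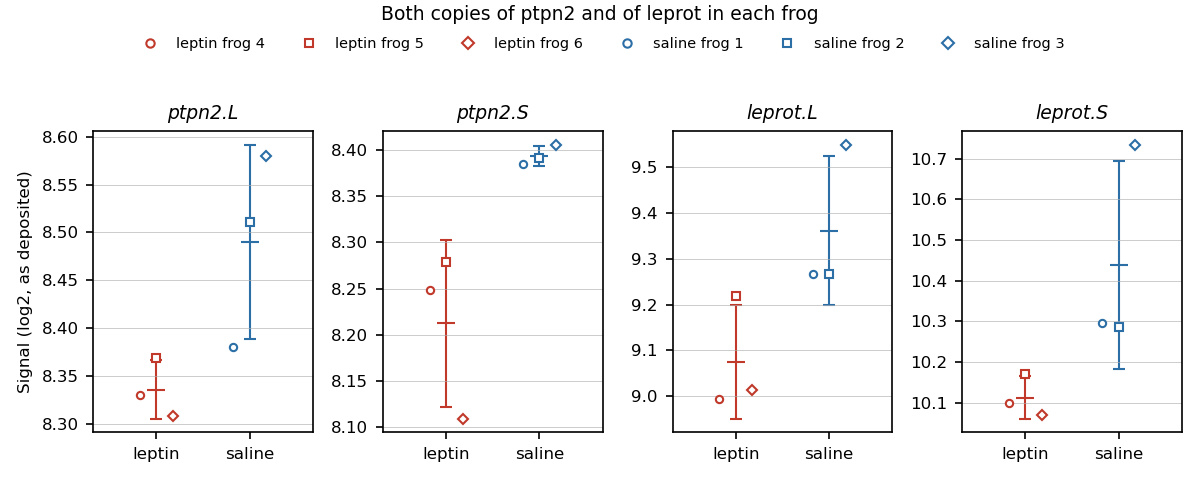
Deposited log2 signal of both copies of *ptpn2* and *leprot* in each frog (symbols), with group mean and SD (bars, n = 3), leptin frogs left and saline frogs right; each panel has its own axis range, which does not start at 0. In all 4 panels every leptin frog lies below every saline frog, by 0.01 between the nearest frogs for *ptpn2.L* and 0.11 for *ptpn2.S*.

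The genes whose pattern over the 6 arrays was nearest to that of the brighter *lepr.S* probe set, by the root mean square (RMS) difference of values centred on each probe set's own mean, were *sla2.L* (RMS difference 0.06), *mrps35.L* (0.07) and *lmnb3.S* (0.08), where *lepr.S* itself departed from its mean by an RMS of 0.22. For *stat5b.L*, the member with the largest SD over the 6 frogs (0.46), they were *nr5a2.L* (0.08), *cdkn1b.S* (0.08) and *stard5.S* (0.09), against an RMS of 0.42 for *stat5b.L* itself. These are the nearest of 15495 single-symbol probe sets over only 6 arrays, and they are given as a description.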

How the data were processed

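Transcripts were measured in 6 frogs with 1 Affymetrix array each. The authors deposited log2 signals, 1 per probe set and array, and RMA, affy and limma are the tools given by the submitters' processing notes, with versions and settings not given in the sources used here. Per the labels' protocols, each array received biotin-labelled RNA made from 250 ng of total RNA. Of 32635 probe sets, 96 AFFX controls were left out. Symbols came from the array annotation: 15495 tested probe sets had 1 symbol, 279 several and 16765 none. RefSeq's gene table (Xenopus_laevis_v10.1) matched all 20 member probe sets through Entrez identifiers and served for names and gene order alone.

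The deposited values were used unchanged. The groups were compared with limma 3.58.1 (R 4.3.3; lmFit and eBayes, two-sided, no covariate) across all 32539 probe sets, with Benjamini-Hochberg adjustment over all of them. Each difference is leptin minus saline in log2 units, given with moderated standard errors (SE) and 95% intervals, which are not adjusted for their number. Responses of homeologs were compared by the same fit to the .L minus .S value of each frog, each copy taken as its brightest probe set. Alternatives left out each frog, rescaled the arrays, kept the brighter probe sets, changed the variance model, weighted arrays, added pituitary or muscle signal as a covariate, or averaged probe sets. The fits were tested on simulated arrays with known added changes, all larger than any member difference. The simulated arrays held none of the differences between arrays and blocks described above. They therefore do not bear on the small differences of the members. All probe sets of all members are named, and of the other pathway genes the 6 probe sets with the smallest p. The members and lists were chosen with earlier results of these data known. The number of arrays limits the precision.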

Additional observations from a re-analysis of the deposited data

How the results depend on the processing

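Each comparison was repeated with each frog left out, with array medians subtracted or quantiles equalised, with dimmer probe sets left out, with a robust or no variance moderation, with array weights, with pituitary or muscle signal as a covariate, and with probe sets averaged. No member probe set and no homeolog difference passed under any of these. Of 376 single differences, 48 changed sign, all of them of members or between homeologs. The 376 also count both copies of *socs3* and *leprot*, with *socs2.S* and *lep.S*, none of which changed sign. They include refits with robust or no variance moderation, or without dimmer probe sets, which left the estimate itself unchanged. Over all probe sets the number passing was 0 to 4 with a frog left out (4 without saline frog 2, none a member). Of the listed pathway genes 1, *socs3*, passed with all probe sets of a gene averaged. Both *ptpn2* probe sets stayed lower in leptin frogs throughout. For differences that turned sign, the cause was not tested. With a frog left out, the lowest and highest values (probe sets numbered by signal, brightest at 1) were -0.16 and 0.16 for *lepr.S* (probe set 1), -0.090 and 0.16 (probe set 2), -0.20 and 0.030 for *jak1.S* (probe set 1), -0.11 and 0.12 (probe set 2), -0.37 and 0.015 (probe set 4), -0.15 and 0.020 for *jak2.L* (probe set 1), -0.10 and 0.044 (probe set 3), -0.13 and 0.025 for *jak3.L* (probe set 1), -0.067 and 0.13 (probe set 2). They were -0.065 and 0.0091 for *tyk2.L*, -0.064 and 0.50 for *stat3.2.L*, -0.22 and 0.36 for *stat5b.L*, -0.053 and 0.0056 for *stat5b.S*, -0.089 and 0.13 for *ptpn1.L*, and for the difference between homeologs -0.023 and 0.066 (*ptpn2*) and -0.20 and 0.39 (*stat5b*). With array medians subtracted, *lepr.S* (probe set 1) was 0.0031 and *stat5b.S* 0.00028. With array weights the values were -0.079 for *lepr.S* (probe set 2), 0.0066 for *jak2.L* (probe set 3), -0.053 for *jak3.L* (probe set 2), -0.13 for *stat5b.L*, -0.056 for *ptpn1.L* and -0.038 for the *stat5b* homeologs. With the pituitary covariate they were 0.10 for *lepr.S* (probe set 1), 0.0059 for *jak1.S* (probe set 4), 0.026 for *jak2.L* (probe set 1), 0.0026 for *tyk2.L* and -0.020 for the *ptpn2* homeologs. With the muscle covariate they were -0.12 for *jak1.S* (probe set 2), 0.026 for *jak2.L* (probe set 3), -0.20 for *stat3.2.L*, 0.025 for *stat5b.S* and -0.13 for *ptpn1.L*. Leaving out dimmer probe sets gives no value for dim members such as *lepr.S* and *jak3.L*. No paired analysis was possible because the groups share no frog number. With 3 arrays per group, and no detection calls, small changes and the presence of dim transcripts could not be resolved.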
